A study of Mus musculus with 13 samples.

Results

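The genes described here are 8 immune checkpoint ligands that tumor cells can carry: Cd274 (PD-L1), Pdcd1lg2 (PD-L2), Cd276 (B7-H3), Vsir (VISTA), Cd47, Pvr (CD155), Lgals9 (galectin-9) and Nt5e (CD73). They were chosen by name, and all 8 were found among the 54532 genes of the count table by their Ensembl identifier in the GENCODE mouse annotation. RNA came from Yumm1.7, a mouse cutaneous melanoma cell line that the labels give as WT in genotype. Cells had received the solvent DMSO, ADAR1i-124 (10 μM over 12 h), 5-Aza-CdR (1 μM over 72 h), or both compounds. For the combination the labels give no dose or time, and for the cells behind the IgG library they give no treatment. ADAR1i-124 is an inhibitor of ADAR1, the enzyme that changes adenosine to inosine in double-stranded RNA (dsRNA), and 5-Aza-CdR is an inhibitor of DNA methylation. Total RNA was sequenced after each treatment, and in parallel RNA was treated with the single-strand nuclease RNase I and precipitated with the antibody J2, which binds dsRNA, with Z22, which binds Z-form RNA, or with IgG as a control. Each of the 13 conditions has 1 library of 1 cell line grown in culture, so no difference below has a replicate check or a test.

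Tumor cells use these ligands to restrain the immune cells they meet. PD-L1 and PD-L2 bind PD-1 on T cells, CD155 binds TIGIT, CD96 and the activating receptor CD226 on T and natural killer cells, and galectin-9 binds TIM-3 (Havcr2) among other partners. CD47 binds SIRPα (Sirpa) on macrophages and signals that the cell should not be engulfed, VISTA binds partners that include PSGL-1 (Selplg) and VSIG3 (Igsf11), and CD73 makes adenosine, which acts on adenosine receptors of immune cells. B7-H3 is a B7-family protein with no settled receptor. Interferon-γ acting through JAK1, JAK2 and IRF1 is the best known inducer of PD-L1, and ADAR1 is known for keeping the cell's own dsRNA from starting an interferon response.

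Levels are given as CPM, the count of a gene divided by the total of its library and multiplied by 1e6. Total counts were 17015425, 17617961 and 34571822 in total RNA of DMSO, ADAR1i-124 and 5-Aza-CdR cells, 11767409 to 14396132 in the J2 libraries, 8167960 to 14663357 in the Z22 libraries and 15324595 in the IgG library. The total RNA library of the combination held only 1245894 counts, and of its 500 highest genes 359 overlapped, on the opposite strand, a gene counted 1000 times or more with DMSO, against 13 to 25 in the other 12 libraries. Its counts follow the opposite strand and enter no comparison. The Z22 library of DMSO cells also stood apart, because the median over all genes was 0.81, 1.06 and 0.82 higher on the log2 scale in the Z22 libraries of ADAR1i-124, 5-Aza-CdR and combination cells than in it. Of the 7 melanocyte lineage genes, Mitf alone had a clear level, 20.3 to 33.1 CPM in total RNA, while Mlana, Tyr and Tyrp1 had 0 counts in each total RNA library and Sox10, Dct and Pmel had at most 15 counts, so the pigment genes that would mark the labelled lineage were absent or nearly so.

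The genes fell into a group of abundant ligands, a group of low ones and a group at the limit of detection. Because longer genes collect more reads, levels were compared between genes as CPM per kilobase of exon. In total RNA of DMSO cells the order was Lgals9 at 83.4, Cd47 at 69.5 and Pvr at 28.2 CPM per kilobase, each apart from the next beyond its 95% counting interval. Cd274 followed at 3.86 and Cd276 at 3.04, with intervals that overlap, and Vsir at 0.105, Pdcd1lg2 at 0.0599 and Nt5e at 0 lay at the bottom. Pdcd1lg2 could not be told apart from either of the other two, while the intervals of Vsir (0.0482 to 0.200) and Nt5e (0 to 0.0252) do not overlap. All intervals here are exact and cover counting error only: the reads carry no molecular identifiers, so several may stem from 1 molecule. The plot of levels per kilobase shows how this order differed between treatments.

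**Figure D1:**
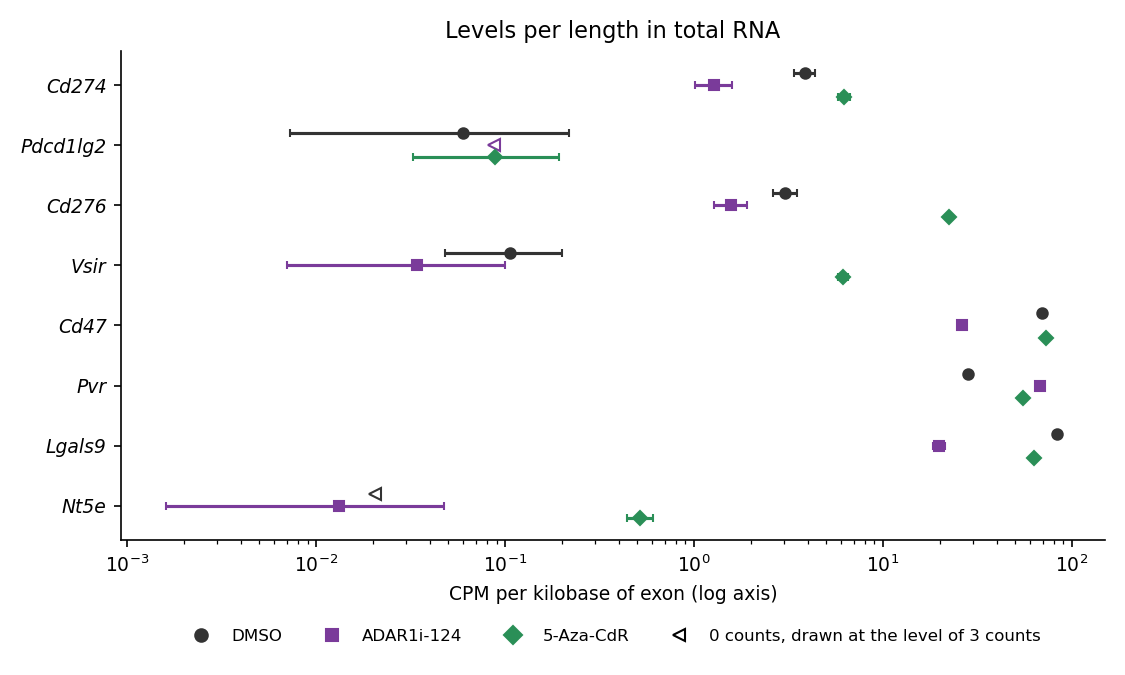
Level of each ligand gene in total RNA as CPM per kilobase of exon (log axis) in the DMSO, ADAR1i-124 and 5-Aza-CdR libraries, with exact 95% Poisson intervals; open triangles stand for 0 counts and are drawn at the level of 3 counts. Lgals9, Cd47 and Pvr lead in each library, in an order that differs between them, and Cd276, Vsir and Nt5e lie farther to the right with 5-Aza-CdR.

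After ADAR1i-124, Pvr led at 67.7 CPM per kilobase, before Cd47 at 26.2 and Lgals9 at 19.7, and Cd276 at 1.57 and Cd274 at 1.27 had overlapping intervals. After 5-Aza-CdR the order was Cd47 at 72.6, Lgals9 at 62.7, Pvr at 54.9 and Cd276 at 22.4, and Cd274 at 6.23 and Vsir at 6.10 could not be told apart. Nt5e reached 0.518 and Pdcd1lg2 was last at 0.0885 CPM per kilobase.

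In total RNA of cells treated with ADAR1i-124, the galectin-9, PD-L1 and CD47 genes were 2.65-fold to 4.23-fold lower than in DMSO cells, and the CD155 gene was 2.40-fold higher. Cd276 was also lower, by less than the 2-fold line. Of the 8 genes, 1 was higher and 3 were lower by 2-fold or more, on a log2 scale with 0.5 CPM added. The same line was passed upward by 7.71% and downward by 8.7% of the 13693 expressed genes, those that averaged 1 CPM or more over both libraries. The median log2 change was -0.76 over the 8 genes, of which 5 were expressed in this sense, and -0.09 over all 13693.

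Lgals9, whose product engages TIM-3, had 3032 counts (178 CPM) with DMSO and 743 counts (42.2 CPM) with ADAR1i-124, 4.23-fold lower with a 95% interval of 3.90 to 4.58. Cd274 had 238 counts (14.0 CPM) with DMSO and 81 counts (4.60 CPM) with ADAR1i-124, 3.04-fold lower with an interval of 2.35 to 3.96. Both differences are larger than counting error. Cd47 went from 7419 counts (436 CPM) to 2900 counts (165 CPM), 2.65-fold lower with an interval of 2.54 to 2.77. Cd276 had 189 counts (11.1 CPM) and 101 counts (5.73 CPM), 1.94-fold lower with an interval of 1.51 to 2.49, so the interval spans the 2-fold line but not 1. In bulk RNA, fewer cells of a kind and less RNA per cell cannot be told apart.

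Pvr ran the other way. It had 2940 counts (173 CPM) with DMSO and 7307 counts (415 CPM) with ADAR1i-124, an interval of 2.30 to 2.51 for the 2.40-fold difference. The remaining genes gave no detectable difference at this depth. Vsir had 9 and 3 counts, 3.11-fold lower with an interval of 0.775 to 17.8 that includes 1. Pdcd1lg2 had 2 and 0 counts and Nt5e 0 and 2, all at or under 3 counts, the smallest number taken as detected, which is 0.176 CPM with DMSO and 0.170 CPM with ADAR1i-124. The plot of changes in total RNA sets both treatments side by side.

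**Figure D2:**
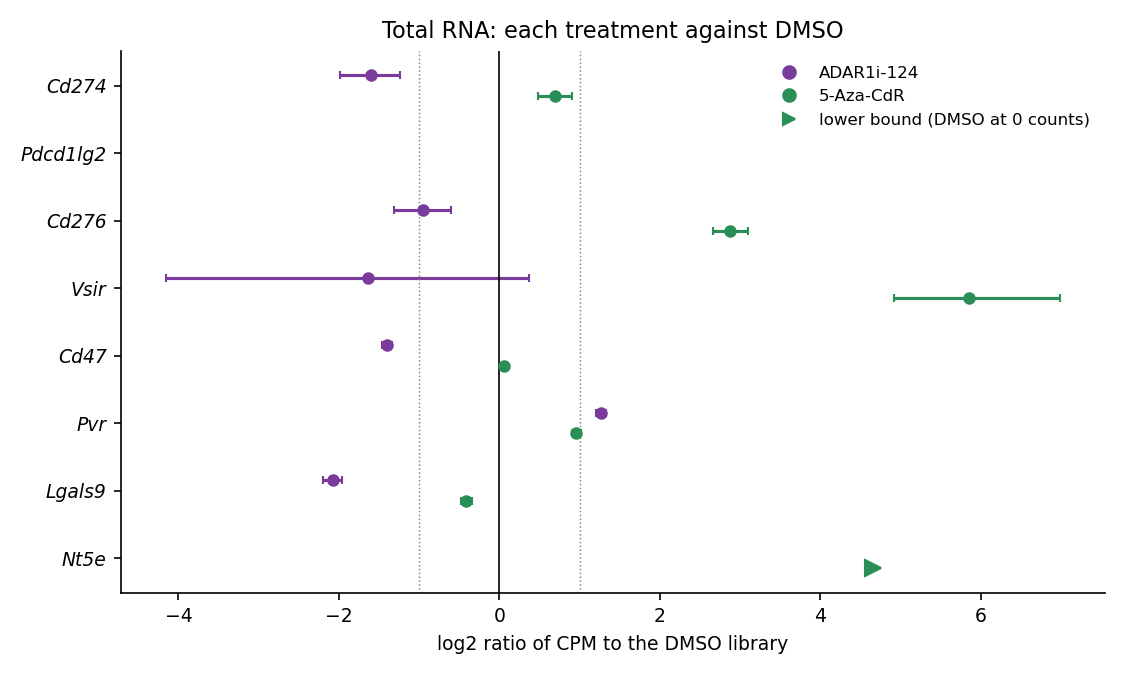
Log2 ratio of CPM in total RNA of each treatment to the DMSO library, without a pseudocount, with exact 95% intervals of counting error; dotted lines mark 2-fold. The triangle is a lower bound for Nt5e with 5-Aza-CdR, and Pdcd1lg2, and Nt5e with ADAR1i-124, have no point because a library held fewer than 3 counts. Lgals9, Cd274 and Cd47 lie left of the lower 2-fold line with ADAR1i-124 and Pvr right of the upper one, the wide interval of Vsir with ADAR1i-124 crosses 0, and Vsir, Nt5e and Cd276 lie far to the right with 5-Aza-CdR.

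Genes that control PD-L1 or handle its protein were read beside Cd274. All 18 listed genes were expressed, 1 was at least 2-fold higher with ADAR1i-124 and 2 lower, near the 7.71% and 8.7% of all expressed genes, with a median log2 change of -0.36. Irf1, which binds the PD-L1 promoter, had 802 and 230 counts and a log2 change of -1.81. Rela, a subunit of NF-κB, had 775 and 1942 counts and a log2 change of 1.27. The interferon-γ receptor and kinase genes kept within 2-fold, at -0.86 for Ifngr1, 0.17 for Ifngr2, -0.19 for Jak1 and -0.55 for Jak2.

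The region before the Lgals9 start site is shown because it held a match to a pair of GAAA with NN between them, the core of the interferon-stimulated response element. RefSeq windows (GRCm38.p6) of 300 bases, from 250 before to 50 after the start, were found for 7 of the 8 genes, and not for Pvr. Searched on both strands, this core was in 3.44% of 32841 windows and TTCNNNGAA, the gamma-activated site, in 8.3%. Of the 7 genes, Lgals9 alone held the first, with 2 matches, and none held the second. The 250 bases before the start are chr11:78984925-78985174 on the minus strand, with the match in capitals on the strand opposite to the motif as spelled. The other match lies after the start. Cd274, shown beside it at chr19:29367188-29367437 on the plus strand with its CpG dinucleotides in capitals, held neither motif in this window. A match is a description of the letters and no evidence of binding.
Lgals9: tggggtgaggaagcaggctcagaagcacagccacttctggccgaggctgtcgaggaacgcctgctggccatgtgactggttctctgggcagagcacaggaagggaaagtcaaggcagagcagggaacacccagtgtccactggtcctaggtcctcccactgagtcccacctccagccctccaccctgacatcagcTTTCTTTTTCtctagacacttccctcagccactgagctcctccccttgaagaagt
Cd274: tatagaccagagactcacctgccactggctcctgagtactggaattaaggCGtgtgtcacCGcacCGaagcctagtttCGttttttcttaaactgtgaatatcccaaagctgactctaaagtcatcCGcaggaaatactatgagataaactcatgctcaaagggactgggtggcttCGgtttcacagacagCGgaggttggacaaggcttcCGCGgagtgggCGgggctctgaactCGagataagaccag

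In total RNA of cells treated with 5-Aza-CdR, the VISTA, CD73 and B7-H3 genes, which were low or undetected in DMSO cells, were far higher. Of the 8 genes, 3 were at least 2-fold higher and 0 lower, beside 17.0% and 8.96% of 14391 expressed genes. The median log2 change was 0.81 over the 8 genes, of which 7 were expressed, and 0.06 over all 14391. Vsir and Nt5e averaged 1 CPM only through their level with 5-Aza-CdR. The DMSO library is the same one as in the comparison with ADAR1i-124, so its counting error enters both. The labels give no time for DMSO, and it is set against 12 h of ADAR1i-124 and 72 h of 5-Aza-CdR. In at least 1 of these comparisons, compound and length of treatment therefore cannot be told apart.

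Vsir, a B7-family gene mostly known from myeloid and T cells, had 9 counts (0.529 CPM) with DMSO and 1058 counts (30.6 CPM) with 5-Aza-CdR, 57.9-fold higher with an interval of 30.4 to 127. With 0.5 CPM added, its log2 change was 4.92. Nt5e had 0 counts with DMSO and 154 counts (4.45 CPM) with 5-Aza-CdR, at least 25.3-fold higher when set against 3 counts in the DMSO library. Cd276 had 189 counts (11.1 CPM) and 2828 counts (81.8 CPM), 7.36-fold higher with an interval of 6.35 to 8.58. With 5-Aza-CdR, Cd276 and Vsir were thus at or above the level of Cd274, and Nt5e was detected but low.

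The abundant ligands moved less. Pvr had 2940 and 11616 counts (173 and 336 CPM), 1.94-fold higher with an interval of 1.87 to 2.03 that reaches the 2-fold line. Cd274 had 238 and 780 counts (14.0 and 22.6 CPM), 1.61-fold higher with an interval of 1.39 to 1.87. Lgals9 had 3032 and 4632 counts in libraries of different size (178 and 134 CPM), 1.33-fold lower with an interval of 1.27 to 1.39. Cd47 was at 436 and 456 CPM, a ratio of 1.05, and Pdcd1lg2 had 2 and 6 counts, a ratio of 1.48 with an interval of 0.264 to 14.96. None of the 18 genes that control PD-L1 or handle its protein passed the 2-fold line with 5-Aza-CdR (0 higher, 0 lower, median log2 change 0.09).

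The windows before the start of Vsir, Nt5e and Cd276 are shown with each CpG, the dinucleotide that DNA methylation acts on, in capitals. The median RefSeq window of 300 bases held 7 CpG. Cd276 held 39, more than 95.6% of windows, Nt5e 23, more than 78.5%, and Vsir 15, more than 65.4%. The genes that changed less with 5-Aza-CdR held 35 (Cd47, first of its 2 windows), 15 (Cd274), 4 (Lgals9) and 3 (Pdcd1lg2), and Pvr has no window. Both Cd47 windows lie inside the GENCODE gene, downstream of its outermost start. Whether the number of CpG has a part in the changes was not tested. Methylation itself was not measured. The printed 250 bases are chr10:60346601-60346850 on the plus strand, chr9:88327359-88327608 on the plus strand and chr9:58555034-58555283 on the minus strand. GENCODE places the outermost start of Nt5e and of Cd276 upstream of the printed bases, so these may in part be transcribed, and that of Lgals9 lies within its printed bases.
Vsir: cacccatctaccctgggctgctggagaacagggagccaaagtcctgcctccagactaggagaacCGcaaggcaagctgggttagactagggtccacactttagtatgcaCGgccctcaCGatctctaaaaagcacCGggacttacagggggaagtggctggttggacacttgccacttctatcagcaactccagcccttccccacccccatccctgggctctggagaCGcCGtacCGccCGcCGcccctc
Nt5e: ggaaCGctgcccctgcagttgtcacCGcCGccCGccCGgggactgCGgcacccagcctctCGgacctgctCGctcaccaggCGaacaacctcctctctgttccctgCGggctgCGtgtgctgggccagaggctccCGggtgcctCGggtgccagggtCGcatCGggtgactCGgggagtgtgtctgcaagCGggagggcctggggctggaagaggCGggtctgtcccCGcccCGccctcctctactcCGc
Cd276: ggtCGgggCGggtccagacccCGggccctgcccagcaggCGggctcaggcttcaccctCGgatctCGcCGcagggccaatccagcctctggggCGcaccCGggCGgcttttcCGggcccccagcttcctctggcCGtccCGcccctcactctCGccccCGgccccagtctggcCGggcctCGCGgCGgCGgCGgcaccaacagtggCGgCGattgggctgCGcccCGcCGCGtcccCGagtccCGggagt

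Vsir (GRCm38, chromosome 10, 60346851 to 60372684, plus strand) lies inside Cdh23, a cadherin gene on the opposite strand, with which it shares 0 exon bases. Cdh23 had 22 counts with DMSO, 30 with ADAR1i-124 and 838 with 5-Aza-CdR, so both genes of this locus were higher in the same library. Cd276 (chromosome 9, 58524298 to 58555437, minus strand) shares 416 exon bases with Gm10657 on the opposite strand, which had at most 10 counts in these total RNA libraries. Cd274 (chromosome 19, 29367455 to 29388095, plus strand) overlaps 511 exon bases of the antisense gene AC119228.1, which is not among the counted genes. The strand setting of the counting is not given in the sources used here, and what part such partners have in the counts was not tested. Nt5e lies on chromosome 9 from 88327197 to 88372092 on the plus strand, and no gene of the annotation overlaps it. Among the abundant ligands, Lgals9 lies on chromosome 11 from 78962974 to 78984946 on the minus strand, Cd47 on chromosome 16 from 49800533 to 49915010 on the plus strand, and Pvr on chromosome 7 from 19903578 to 19921160 on the minus strand.

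Cd274 and Pdcd1lg2 are neighbors on chromosome 19 in the same orientation, with 22823 bp between them. They differed in level in every library. Cd274 had 57 to 780 counts in the 11 libraries other than the IgG library that were compared, and Pdcd1lg2 had 0 to 6. In the IgG library they had 219 and 0 counts.

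The summed levels of genes that mark other cell types were also higher with 5-Aza-CdR in total RNA. The summed level of 9 leukocyte genes was 16.9, 34.9 and 91.4 CPM in total RNA of DMSO, ADAR1i-124 and 5-Aza-CdR cells, most of it Cd68, which many cell types carry in lysosomes, and Cd14. Cd3e had 0 counts in all 3 libraries, and Ptprc, the pan-leukocyte marker, had 0, 1 and 42 counts. The sum of 3 endothelial genes was 4.06, 18.4 and 83.0 CPM, most of it Cdh5, and that of 4 fibroblast genes was 179, 59.5 and 480 CPM. Pdgfrb, a growth factor receptor of fibroblasts and pericytes, held most of the fibroblast sum with DMSO and was at 169, 30.6 and 156 CPM, whereas Dcn, a fibroblast proteoglycan, had 7, 0 and 4473 counts. Of the other fibroblast genes, Pdgfra had 89, 447 and 5201 counts and Col1a1 66, 63 and 1521, so the 4 genes did not move together with ADAR1i-124. In total RNA with 5-Aza-CdR these sums were higher, as were Vsir, Nt5e and Cd276. With ADAR1i-124 the leukocyte and endothelial sums were also higher, whereas Cd276 was lower and Vsir and Nt5e gave no detectable difference. What part these marker genes have in the result was not tested. In the precipitates, where Vsir was also higher with 5-Aza-CdR than with DMSO, the fibroblast sum was lower, at 115 and 64.4 CPM in J2 and 131 and 72.8 CPM in Z22 with DMSO and 5-Aza-CdR. The leukocyte sum was 64.6 and 31.6 CPM in J2 and 17.4 and 50.1 CPM in Z22, and the endothelial sum was higher in both, at 8.54 and 61.7 CPM in J2 and 7.33 and 32.2 CPM in Z22.

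A further list held 20 other immune regulatory genes, most of them ligands of checkpoint or costimulatory receptors. Of these 20, 8 were at least 2-fold higher with 5-Aza-CdR and 0 lower, beside 11.1% and 4.9% of the 28461 genes with at least 1 count in either library. The median log2 change over the 20 was 0.62. The largest was Cd80, a ligand of CD28 and CTLA-4, with 96 counts in DMSO and 1778 in 5-Aza-CdR cells and a log2 change of 3.08. Tnfsf9 (4-1BB ligand) changed by 2.41, Tnfrsf14 (HVEM) by 2.12 from 14 counts in DMSO cells, H2-T23 (Qa-1, a ligand of NKG2A) by 1.79, Nectin1 by 1.60 and Cd24a, with 1 and 47 counts, by 1.73. With ADAR1i-124, 1 of the 20 was at least 2-fold higher, Cd24a with 1 and 11 counts, and 1 was lower, beside 5.39% and 5.75% of 25102 such genes. The lower one was H2-T23, which had 1052 and 116 counts and a log2 change of -3.14.

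Of 13 receptors or partners of the ligands, 3 were at least 2-fold higher with ADAR1i-124 and 0 lower, beside 5.39% and 5.75% of genes with at least 1 count. Igsf11 (VSIG3) had 5 and 151 counts and a log2 change of 3.51, and Havcr2 (TIM-3) had 64 and 602 counts and a log2 change of 3.02, in the library in which its ligand gene Lgals9 was 4.23-fold lower. Sirpa was the other, with 1 and 16 counts. With 5-Aza-CdR, 4 of the 13 were higher and 1 lower, beside 11.1% and 4.9%. Sirpa had 1 and 210 counts and a log2 change of 3.56, where the ratio without the added 0.5 CPM has a log2 interval of 4.198 to 12.002. Havcr2 had 64 and 854 counts and a change of 2.56, Igsf11 had 5 and 55 counts, Adora2a (an adenosine receptor) had 4 and 47 counts, and Tigit had 45 and 18 counts and a change of -1.62.

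In RNA precipitated with J2, the genes for galectin-9, PD-L1, CD155 and B7-H3 were lower with ADAR1i-124 than with DMSO. Of the 8 genes, 0 were higher and 4 lower by 2-fold or more, beside 7.37% and 10.8% of 13522 expressed genes. Cd274 was at 14.9 and 3.96 CPM, 3.77-fold lower with an interval of 2.79 to 5.17. Lgals9 was at 103 and 33.3 CPM, 3.09-fold lower with an interval of 2.78 to 3.44. The interval of Cd274 overlaps that of its difference in total RNA, and that of Lgals9 lies below it.

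Pvr was at 301 CPM with DMSO and 145 CPM with ADAR1i-124 in J2 RNA, 2.08-fold lower with an interval of 1.97 to 2.20, where total RNA gave a 2.40-fold higher level. Cd276 was at 7.22 and 3.33 CPM, 2.17-fold lower with an interval of 1.51 to 3.15. Cd47 was at 212 and 156 CPM, 1.35-fold lower with an interval of 1.28 to 1.43. Vsir, Nt5e and Pdcd1lg2 had at most 7 counts in these J2 libraries, and no difference was detectable.

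With 5-Aza-CdR, J2 RNA held 2 genes at least 2-fold higher, Vsir and Cd274, and 0 lower, beside 8.61% and 6.0% of 14007 expressed genes. Vsir was at 0.575 and 4.44 CPM, 7.72-fold higher with an interval of 3.52 to 20.04. Cd274 was at 14.9 and 34.2 CPM, 2.29-fold higher with an interval of 1.92 to 2.74. Cd276 was at 7.22 and 14.1 CPM, 1.96-fold higher, Lgals9 at 103 and 158 CPM, 1.53-fold higher, and Cd47 and Pvr had ratios of 1.02 and 0.951. Vsir and Cd276 thus had smaller ratios in J2 RNA than in total RNA, with intervals that do not overlap.

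With both compounds, J2 RNA held 3 genes at least 2-fold higher than with DMSO, Vsir, Nt5e and Cd274, and 0 lower, beside 8.21% and 3.88% of 14158 expressed genes. Vsir was at 5.35 CPM, Nt5e at 1.36 CPM from 16 counts against 3 (5.52-fold higher, interval 1.58 to 29.6), and Cd274 at 31.5 CPM. Nt5e averaged below the 1 CPM of the expressed genes, and Cd274, at a log2 change of 1.05, was just under the line by TMM (0.93) and DESeq2 (0.95) scaling. Lgals9 was at 154 CPM, Cd276 at 13.0, Cd47 at 196 and Pvr at 270 CPM.

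**Figure D3:**
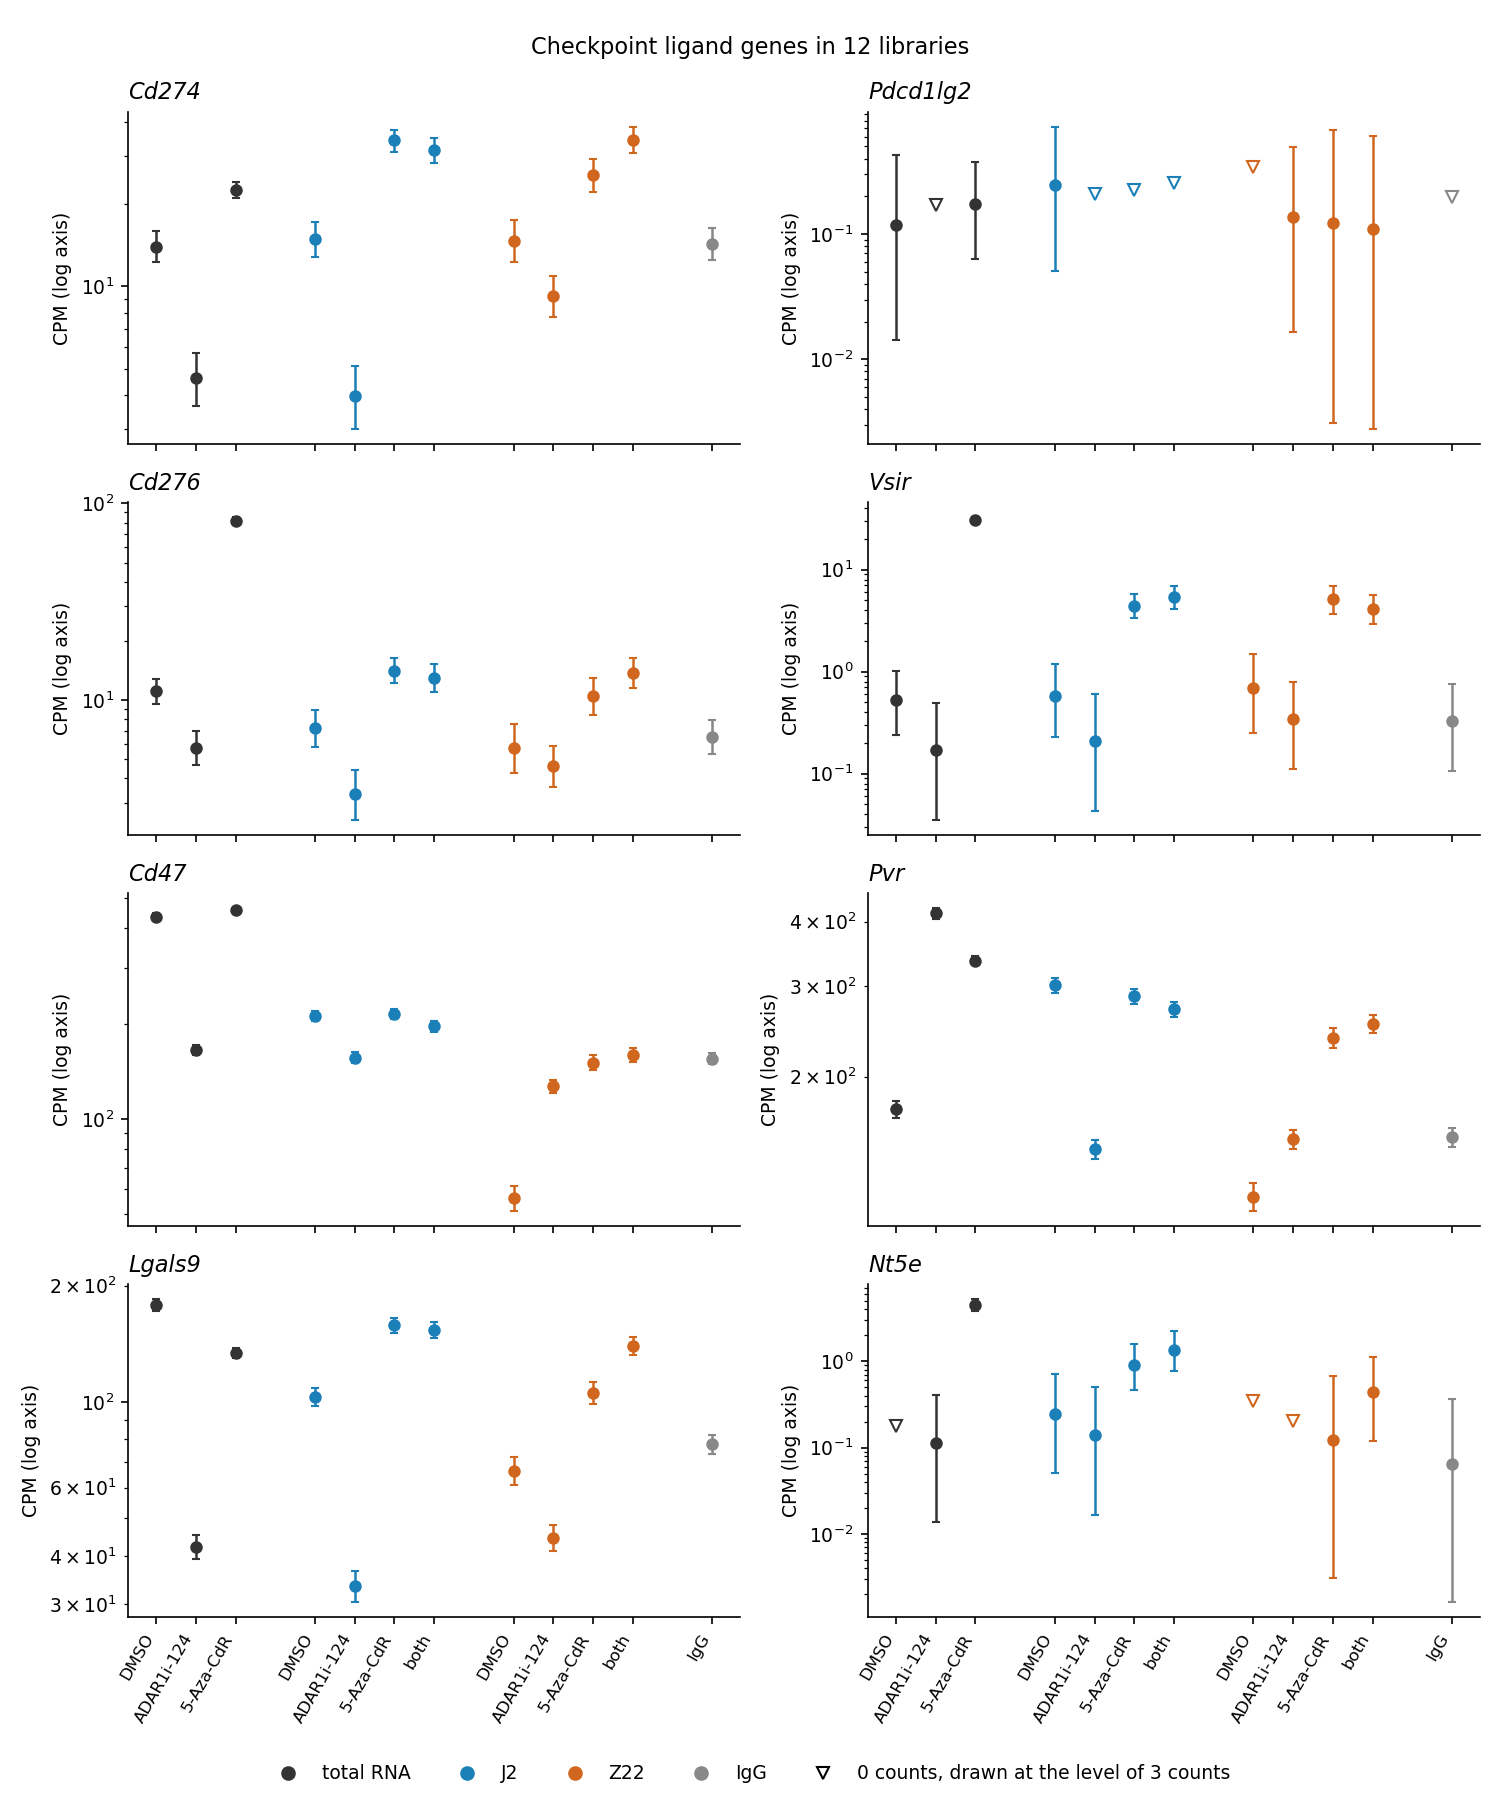
CPM (log axis, a scale for each gene) of the 8 ligand genes in 3 total RNA, 4 J2, 4 Z22 and 1 IgG library, with exact 95% Poisson intervals; open triangles stand for 0 counts and are drawn at the level of 3 counts. Cd274 and Lgals9 have their lowest value with ADAR1i-124 in each fraction, Pvr is highest with ADAR1i-124 in total RNA but lowest with it in J2, and the Z22 library of DMSO cells holds the lowest Cd47 and Pvr levels.

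In RNA precipitated with Z22, the comparison with DMSO is offset by the shift over all genes given above, so changes are also given as log2 values relative to that median. With ADAR1i-124, 1 gene was at least 2-fold higher and 0 lower, beside 42.9% and 5.13% of 12799 expressed genes. Scaled by DESeq2's size factors, 0 were higher and 4 lower, and by edgeR's TMM factors 0 and 2. Cd47 was at 56.0 and 127 CPM, 2.26-fold higher with an interval of 2.04 to 2.50, which is 0.36 above the median of all genes on the log2 scale. Cd274 was at 14.7 and 9.21 CPM, 1.59-fold lower and 1.45 below that median. Lgals9 was at 66.5 and 44.5 CPM, 1.49-fold lower and 1.39 below it. Both genes were therefore lower with ADAR1i-124 in total RNA, J2 and Z22, with and without the median taken off.

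Pvr was at 117 and 151 CPM in these Z22 libraries, 1.29-fold higher by the totals but 0.44 below the median of all genes, so its direction depends on the scaling. Cd276 was at 5.73 and 4.64 CPM, with an interval of the ratio that includes 1, and 1.09 below the median. Vsir had 6 and 5 counts, Pdcd1lg2 0 and 2, and Nt5e 0 in both.

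With 5-Aza-CdR, 3 genes were at least 2-fold higher in Z22 RNA and 0 lower, beside 52.1% and 4.1% of 13716 expressed genes. Vsir was at 0.687 and 5.14 CPM, 7.48-fold higher with an interval of 3.16 to 21.5, and 1.19 above the median of all genes. Cd47 was at 56.0 and 150 CPM, 0.36 above it, and Pvr at 117 and 238 CPM, 0.04 below it. Cd274 at 25.6 CPM, Cd276 at 10.5 CPM and Lgals9 at 106 CPM were higher than with DMSO by the totals but lay 0.28, 0.24 and 0.40 below the median. Of all the ligand genes, Vsir alone was more than 2-fold above the shift of all genes. It had 6 counts with DMSO and averaged 1 CPM only through the 5-Aza-CdR library.

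With both compounds, 6 genes were at least 2-fold higher in Z22 RNA and 0 lower, beside 43.4% and 5.03% of 13276 expressed genes. Relative to the median of all genes, Vsir was 1.15 higher, Cd47 0.68, Cd274 and Cd276 0.38 each, Pvr 0.29 and Lgals9 0.25, so of these 6 genes Vsir alone kept a 2-fold difference. Vsir averaged 1 CPM only through the combination library. Nt5e had 0 counts with DMSO and 4 with both compounds.

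**Figure D4:**
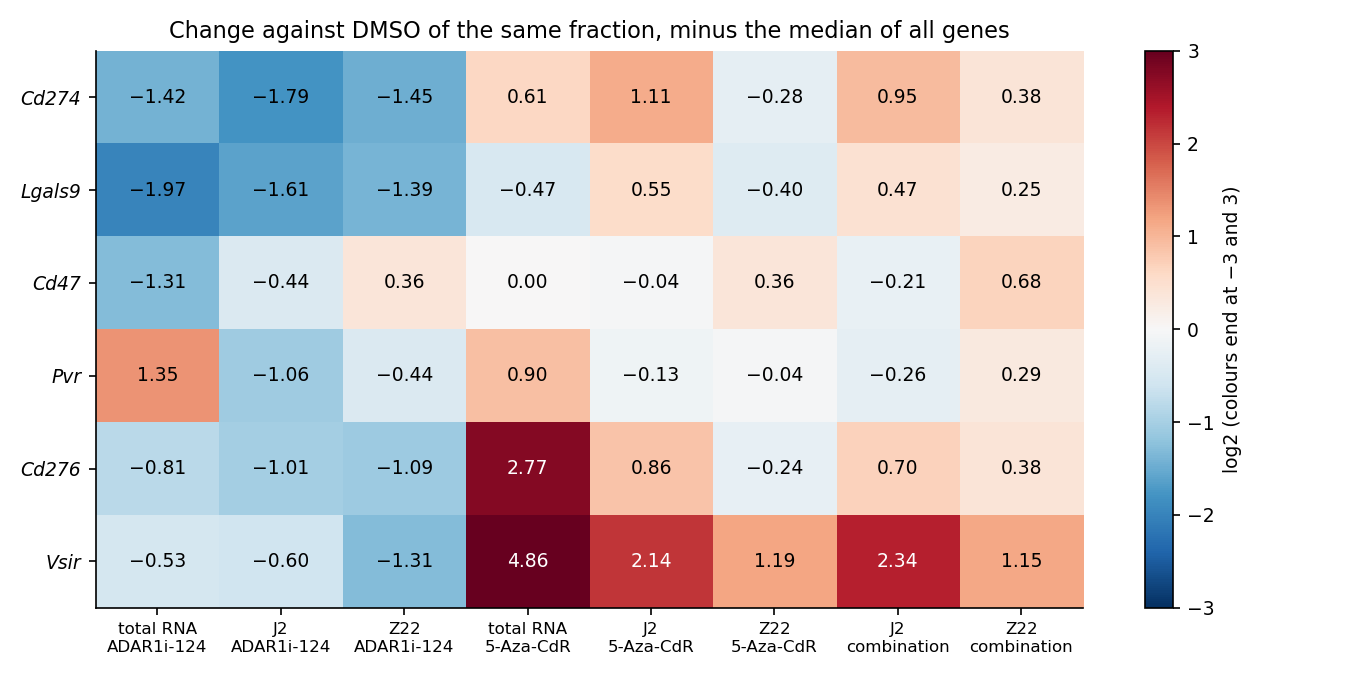
Log2 change (0.5 CPM added) against the DMSO library of the same fraction, minus the median change of all genes in that comparison, for 6 ligand genes; Vsir had 3 to 9 counts in the DMSO and ADAR1i-124 libraries. Cd274 and Lgals9 are at -1.39 or lower with ADAR1i-124 in total RNA, J2 and Z22, while Pvr is at 1.35 in total RNA and -1.06 in J2.

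Against IgG, the DMSO precipitates showed little enrichment of these genes. In J2 RNA 0 of 8 were higher and 0 lower by 2-fold or more, beside 13.5% and 8.97% of 13293 expressed genes. Pvr came closest, at 301 against 152 CPM, 1.97-fold higher with an interval of 1.87 to 2.08. Cd47 was 1.36-fold and Lgals9 1.33-fold higher, with intervals that exclude 1, and Cd274 and Cd276 had ratios of 1.05 and 1.11 with intervals that include it. In Z22 RNA 0 genes were at least 2-fold higher than with IgG and 1 was lower, Cd47 at 56.0 against 155 CPM, beside 11.3% and 45.4% of 12558 expressed genes. With DESeq2's size factors Cd47 was within 2-fold and Vsir, from 6 and 5 counts, was 1.08 higher on the log2 scale. Relative to the median of all genes, which was -0.83, Cd47 was 0.63 lower and Cd274 was 0.86 higher. Precipitates of treated cells were also set against this IgG library. With 5-Aza-CdR the median log2 difference over the 8 genes was 1.04 in J2 and 0.54 in Z22. With both compounds it was 0.96 and 0.79, and with ADAR1i-124 -0.15 and -0.23. Over all genes these medians lay between -0.05 and 0.18.

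With ADAR1i-124, Pvr in the precipitates was near its IgG level of 152 CPM, with ratios of 0.948 (interval 0.893 to 1.01) in J2 and 0.991 (0.935 to 1.05) in Z22, although its level in total RNA was 415 CPM. Pvr in J2 RNA was 1.74-fold higher than in total RNA with DMSO (interval 1.66 to 1.83) and 2.87-fold lower with ADAR1i-124 (interval 2.73 to 3.01). Cd47 in J2 RNA was 2.06-fold lower than in total RNA with DMSO and at a ratio of 0.949 with ADAR1i-124. With 5-Aza-CdR, Vsir and Cd276 in J2 RNA were 6.90-fold and 5.79-fold lower than in total RNA, with intervals of 5.30 to 9.12 and 4.99 to 6.74, and in Z22 RNA 5.95-fold and 7.77-fold lower. The large levels of Vsir and Cd276 in total RNA were thus not matched in either precipitate. Cd274 differed less, at 1.52-fold higher in J2 than in total RNA with 5-Aza-CdR.

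Adding ADAR1i-124 to 5-Aza-CdR left the ligand genes close to their levels with 5-Aza-CdR alone in the J2 libraries. The log2 differences of the combination from 5-Aza-CdR ran from -0.13 for Cd47 to 0.41 for Nt5e, and the intervals of Cd274, Cd276, Vsir, Lgals9 and Nt5e included no difference. For Cd274 the ratio was 0.921 with an interval of 0.801 to 1.06. In the Z22 libraries Cd274 was 1.35-fold higher with both compounds (interval 1.13 to 1.61) and Lgals9 1.32-fold higher (1.21 to 1.44). Against ADAR1i-124 alone, Cd274 with both compounds was 7.96-fold higher in J2 (6.01 to 10.7) and 3.74-fold higher in Z22 (3.05 to 4.61), and Lgals9 4.61-fold and 3.14-fold higher. The lower Cd274 and Lgals9 levels of the ADAR1i-124 libraries were therefore not seen in the libraries of the combination.

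Lgals9 was the gene whose pattern was most like that of Cd274 among 8874 genes that averaged 10 CPM or more. Likeness was the mean absolute difference of log2 values, each centred within total RNA, J2 and Z22, over 11 libraries. It was 0.24 for Lgals9, 0.25 for Isg20, 0.26 for Tapbp, 0.27 for H2-T22 and 0.27 for Gm43197, against a median of 0.86 over all genes compared. Isg20 is an interferon-induced exonuclease, Tapbp encodes tapasin, which loads peptides on MHC class I, and H2-T22 is a class I-like gene. In total RNA with ADAR1i-124 their log2 changes were -1.59, -1.34 and -2.24, beside -1.51 for Cd274. With 5-Aza-CdR they were 0.84, 1.45 and 0.91, beside 0.67 for Cd274. Lgals9 and Gm43197 went the other way there, at -0.41 and -0.61. The libraries share treatments and scaling, so this is a description of these 11 libraries.

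**Figure D5:**
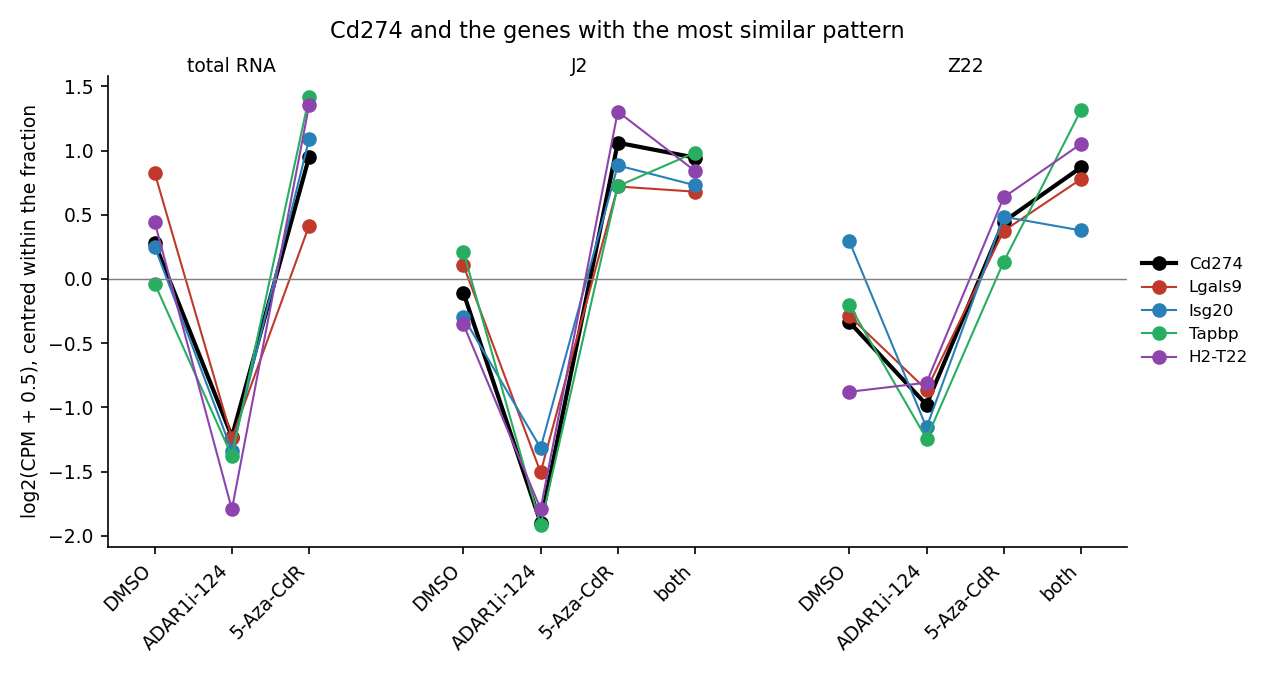
Log2(CPM + 0.5) centred within total RNA (3 libraries), J2 (4) and Z22 (4) for Cd274, Lgals9, Isg20, Tapbp and H2-T22; lines join libraries of a fraction and each point is 1 library. All 5 genes lie below 0 with ADAR1i-124 and above 0 with 5-Aza-CdR in each fraction. In total RNA, Lgals9 lies lower with 5-Aza-CdR than with DMSO.

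For Vsir the closest genes were Gas7 at 0.39, Mmp9 at 0.39, Atg9b at 0.41, Smox at 0.42 and Stab1 at 0.44, against a median of 1.48. In total RNA with 5-Aza-CdR these genes had log2 changes of 3.99, 3.90, 3.51, 3.29 and 3.59, beside 4.92 for Vsir. They were picked for likeness over the same libraries, so large changes here follow from the choice. Vsir itself had only 3 to 9 counts in its DMSO and ADAR1i-124 libraries. Mmp9 encodes a secreted gelatinase and Smox a spermine oxidase.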

How the data were processed

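Total RNA, J2-precipitated, Z22-precipitated and IgG-precipitated RNA of Yumm1.7 cells was analysed from 13 libraries, 1 per condition, grouped by their labels. The authors removed ribosomal RNA, sequenced paired reads, mapped them with STAR in snakePipes to GRCm38 (mm10) and deposited raw counts per gene without normalization; the counting tool and its strand setting are not given in the sources used here. The authors' kit marks strand, and the total RNA library of the combination, whose counts follow the other strand, was left out of the comparisons.

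Identifiers were matched without version to GENCODE M21 (54495 of 54532 genes). CPM used the library's total in the table. For log2 changes 0.5 CPM was added to each value, so changes of low genes come out too small, and changes of 2-fold or more were counted, beside the same share over expressed genes (an average of 1 CPM or more over both libraries). Fold changes in the text are ratios of CPM without that addition. Their 95% intervals are exact (Clopper-Pearson) intervals of the share of reads from either library, and those of levels are exact Poisson intervals. The floor is 3 counts. With 1 library per group no test was run.

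The 8 genes and the lists were chosen with earlier results of these data known. All 8 genes were described in each comparison. Of other genes, at most the 5 expressed ones with the largest change of each list were named, with the 5 most similar in pattern to Cd274 and to Vsir, which had the largest change of the other genes, and genes that overlap one of the 8. Genes of control or marker lists named for a level within 2-fold or near 0 (Ifngr1, Ifngr2, Jak1, Jak2 and single marker genes), and Cd24a, Sirpa, Igsf11 and Adora2a where they had few counts, were chosen after their values were seen. So was the count over all listed ligands and receptors, in place of the expressed ones, some of which pass 1 CPM only through the library where they are high. Among expressed genes 6 of 8 ligands and 2 of 4 receptors were higher with 5-Aza-CdR, and 0 of 7 and 2 of 4 with ADAR1i-124. The values of 1 gene of the list that controls PD-L1 are not reported here, though it is in that list's counts. Alternatives were scaling by edgeR's TMM factors (edgeR 4.0.16) or DESeq2's size factors (DESeq2 1.42.0, R 4.3.3), totals without the 20 highest genes, pseudocounts of 0.1 and 2 CPM, lines at 1.5-fold and 4-fold, a higher minimum level, no minimum level and protein-coding genes only. Scripts used Python (3.11.15), scipy (1.17.1), pandas (2.3.3) and numpy (2.4.6) and were tested on simulated data. Promoter windows are from RefSeq (GRCm38.p6).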

Additional observations from a re-analysis of the deposited data

Results flagged for a closer look

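Cd47 differed in direction between fractions after ADAR1i-124. Its log2 change against DMSO was 1.17 in Z22 RNA, -1.40 in total RNA and -0.44 in J2 RNA. Relative to the median change of all genes in Z22 RNA, the first value is 0.36. The difference between the fractions was not tested, because each condition has 1 library.

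Pvr also differed in direction after ADAR1i-124, with log2 changes of 1.26 in total RNA, 0.37 in Z22 RNA and -1.05 in J2 RNA. Relative to the median of all genes, the Z22 value is -0.44. This difference was not tested either.

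The total RNA library of the combination, which entered no comparison, held 48 counts of Vsir and 74 counts of Nt5e, above the limit of 3 counts, in a library whose counts follow the other strand. Cdh23, the gene around Vsir on the opposite strand, had 55 counts there.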

How the results depend on the processing

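No paired analysis was run. Each condition has 1 library and the labels give no replicate numbers, so pairing Z22 with J2 over treatments would treat treatments as replicates. Fractions of the same treatment were compared as single pairs of libraries. With 1 library per condition, no library could be left out in turn. All values below count ligand genes past 2-fold in either direction against DMSO unless IgG is named. Scaling moved mainly the Z22 counts. By TMM factors they were 2 with ADAR1i-124, both lower (1 as reported, higher), 1 with 5-Aza-CdR (3), 1 with the combination (6) and 0 against IgG (1). By DESeq2's size factors they were 4, all lower, then 1 and 1 for the 3 treatments, and against IgG the 1 gene past the line turned from Cd47, lower, to Vsir, higher. Without the 20 highest genes they were 2, both lower, 1 and 3, and J2 against IgG gave 1 (0). With DESeq2's size factors Pvr in Z22 RNA with 5-Aza-CdR turned from a log2 change of 1.02 to -0.050. A pseudocount of 0.1 CPM, which lets genes of few counts pass, gave 7 for ADAR1i-124 in total RNA (4), 4 for 5-Aza-CdR in J2 (2), 2 for J2 against IgG (0), and 2 and 5 for ADAR1i-124 and 5-Aza-CdR in Z22. A pseudocount of 2 CPM gave 1 for the combination in J2 (3). With genes of a mean of at least 5 CPM only, J2 gave 1 for 5-Aza-CdR and 1 for the combination. A line at 4-fold left 1 for ADAR1i-124 in total RNA, 0, 1 and 1 for ADAR1i-124, 5-Aza-CdR and the combination in J2, 0, 1 and 0 in Z22 and 0 for Z22 against IgG; of all expressed genes 3.93% passed it for ADAR1i-124 in total RNA, 3.53%, 3.99% and 3.26% in J2, 14.1%, 20.9% and 15.3% in Z22 and 23.1% for Z22 against IgG. With no minimum level, the share of all genes past 2-fold in either direction was 16.0% for 5-Aza-CdR in total RNA (26.0% of expressed genes), 11.9% for ADAR1i-124 in J2 (18.2%), 30.3% for it in Z22 (48.0%) and 35.7% for Z22 against IgG (56.7%), and it moved by at most 1.5 times in the other comparisons. A line at 1.5-fold gave 5 for 5-Aza-CdR in total RNA, 5 for it in J2, 2 and 6 for ADAR1i-124 and 5-Aza-CdR in Z22 and 1 for J2 against IgG. In the remaining settings each count of ligand genes, whatever its direction, stayed within 1.5 times the value reported. Apart from the construction of each setting, the cause was not tested. Depth limits Pdcd1lg2, which had at most 6 counts in each library compared, Vsir outside the libraries with 5-Aza-CdR, and Nt5e, which had at most 16 counts in each library compared other than total RNA of 5-Aza-CdR cells.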
